A study of Mus musculus with 22 samples.

Results

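Small lamina contacts were examined here as the stretches of 100 kb or shorter that remained in each LAD list after intervals under 25 kb apart had been joined. Across 11 lists and chromosomes 1 to 19, 28545 of 51427 joined intervals were small contacts, and the other 22882 were LADs over 100 kb. The contacts were chosen by their measured length, so their number and length are given as a description. Stretches of this size fall below the length filter for LADs in the methods of the paper, which lists these data among the datasets it discusses.

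Lamina-associated domains (LADs) are long stretches of mostly silent chromatin that lie against the nuclear lamina, the meshwork of A-type and B-type lamins under the inner nuclear membrane. DamID records such contacts by fusing a bacterial adenine methyltransferase, Dam, to lamin B1, so that DNA touching the lamina becomes methylated, while unfused Dam reports general accessibility. The lists used here do not show how often, or in how many cells, a short stretch touched the lamina.

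The data came from 22 DamID-seq samples of primary mouse embryonic fibroblasts (MEFs) of C57bl/6 embryos at e13.5, used within 5 passages, and the 11 pairs of Dam-lamin B1 with Dam-only libraries gave 1 list each. WT MEFs, labelled as given no treatment, were from embryos 1.5, 1.8 and x17. Drugs were given to MEFs of embryos 1.8 and x17, namely BIX01294 (inhibits G9a, a histone methyltransferase), DZNep (reduces EZH2 and with it histone methylation) or TSA (blocks histone deacetylases), for 18 to 24 h before the Dam virus, with collection at 60 h. The shAC MEFs, of embryos 1.5 and x17, carried a hairpin against lamin A/C, received the Dam virus 4 days after the hairpin virus and were collected 48 h later. Both Dam and the hairpin were delivered by virus, no list came from cells with a control hairpin, and each list carries the label of 1 embryo. The lists hold start and end positions (build mm9) with no signal or read number, so depth is unknown and the number of lists limits the precision.

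The number of small contacts varied widely among the WT lists. WT lists held 1462 (embryo 1.5), 2550 (embryo 1.8) and 3403 (embryo x17) small contacts. BIX01294 lists held 2373 and 3062, and DZNep lists 2452 and 3138, for embryos 1.8 and x17. TSA lists held 1953 and 1734 for the same embryos, and shAC lists 2970 (embryo 1.5) and 3448 (embryo x17). The WT list of embryo 1.5 was the lowest of all and the shAC list of embryo x17 the highest, and the range of the WT lists covered every treated list but the latter. LADs over 100 kb varied much less, from 1849 to 2239 per list. Small contacts made up 44.2% to 65.0% of the joined intervals but only 2.64% to 5.77% of the called bases.

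**Figure D1:**
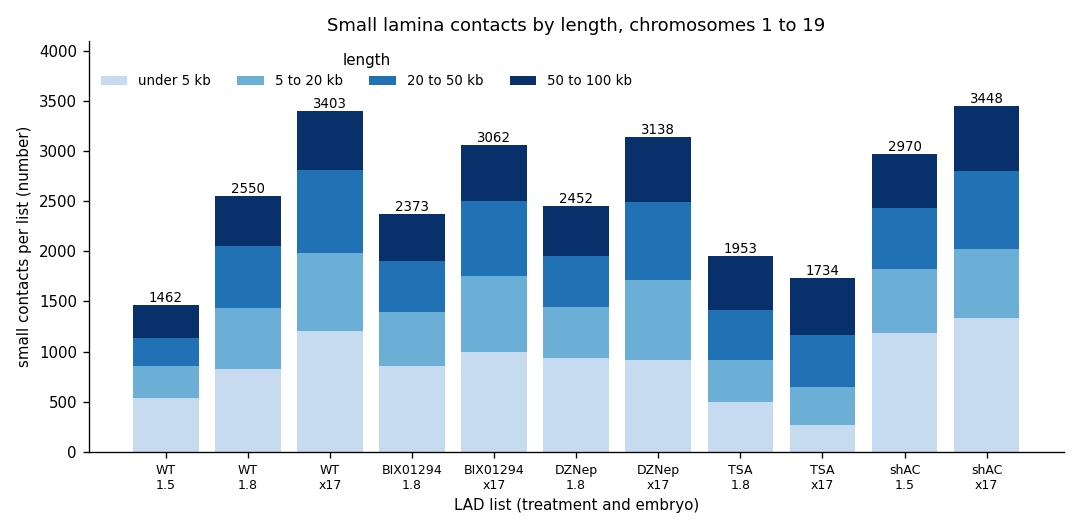
Number of small contacts (y axis) in each of the 11 lists (x axis, treatment and embryo), with bars stacked by length class and the total above each bar. WT lists range from 1462 to 3403, and both TSA lists have fewer contacts under 5 kb (495 and 271) than any other list.

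Most small contacts were far shorter than the limit. The median length was 11.54, 14.5 and 13.2 kb in the WT lists of embryos 1.5, 1.8 and x17. It was 12.5 and 14.7 kb with BIX01294, 12.3 and 16.1 kb with DZNep, and 10.8 and 11.9 kb with shAC. TSA stood apart, with medians of 23.2 kb (embryo 1.8) and 31.3 kb (embryo x17), above every other list. Contacts under 5 kb made up 25.3% and 15.6% of the TSA lists, against 29.2% to 39.97% in the other 9 lists, whereas contacts of 50 to 100 kb numbered 537 and 564 with TSA and 322 to 650 elsewhere. Between 12.04% and 18.2% of the small contacts of a list had been joined from several deposited intervals, and the shortest spanned 1 base.

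The distance of small contacts from LADs ranged widely above the floor of 25 kb that joining sets. The median distance to the nearest LAD over 100 kb in the same list was 144, 147 and 170 kb in WT MEFs (embryos 1.5, 1.8 and x17). It was 141 and 143 kb with BIX01294, 159 and 143 kb with DZNep, 141 and 131 kb with TSA, and 163 and 199 kb with shAC. The lowest median was that of TSA embryo x17 and the highest that of shAC embryo x17. Within 50 kb of a LAD lay 18.3% to 24.2% of the contacts, and 16.4% to 26.2% lay 500 kb or more away. Contacts also lay near each other, since 37.7% to 57.5% had another small contact within 100 kb. Gaps between LADs held one or more small contacts in 40.5% to 57.4% of cases, with up to 9 to 25 contacts in 1 gap. The gaps that held contacts were long, with medians of 415 to 587 kb, against 50.2 to 114 kb for gaps without any. Part of this contrast is set by joining, because a gap that holds a contact must exceed 50 kb, whereas an empty one need only reach 25 kb. The chromosomes differed little in density, from 2.25 contacts per Mb outside LADs on chromosome 17 to 2.96 on chromosome 13 (means over 11 lists).

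**Figure D2:**
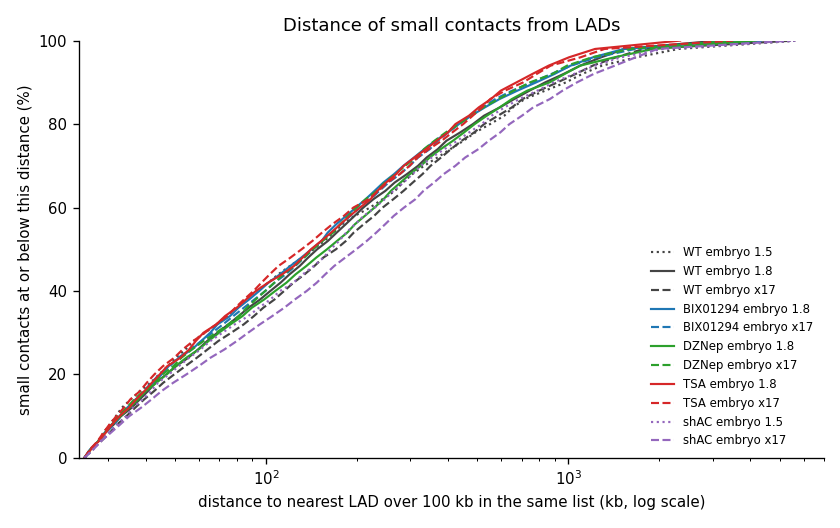
Share of small contacts (y axis, percent) at or below a given distance (x axis, kb, log scale) from the nearest LAD over 100 kb in the same list, with 1 line per list, colours for treatments and line styles for embryos. Medians run from 131 kb (TSA embryo x17) to 199 kb (shAC embryo x17).

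Few small contacts were found at the same place in any given other list. A contact was counted as small again where small contacts of the other list covered at least 50% of its length, and as inside a LAD where LADs over 100 kb did so. Over the 110 ordered pairs of lists, 13.7% ± 3.63 of the contacts were small again (SD over pairs, range 6.04% to 23.2%) and 18.1% ± 9.08 lay inside a LAD (range 5.75% to 45.3%). Pairs share lists, so these SDs describe a spread and are not errors of independent values. To give these shares a scale, the contacts were moved together along their chromosome in 49 fixed steps, and the share was counted after each step. The displaced contacts met a small contact in 2.54% and a LAD in 58.9% of cases. Contacts as called were thus small again 5.39-fold more often on average (3.48-fold to 7.47-fold over pairs) and lay in a LAD at 0.303 of the displaced level. Since by definition a small contact is outside the LADs of its own list, and lists share most LADs, the displacement was also done within the sequence outside those LADs. The levels were then 4.22% for small contacts and 11.6% for LADs. On that scale the contacts were small again 3.26-fold more often (2.50-fold to 4.29-fold), above every step in 110 of 110 pairs, and lay in a LAD 1.53-fold more often (1.08-fold to 2.24-fold), above every step in 108 of 110 pairs. These displacements are a reference level and carry no p-value.

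**Figure D3:**
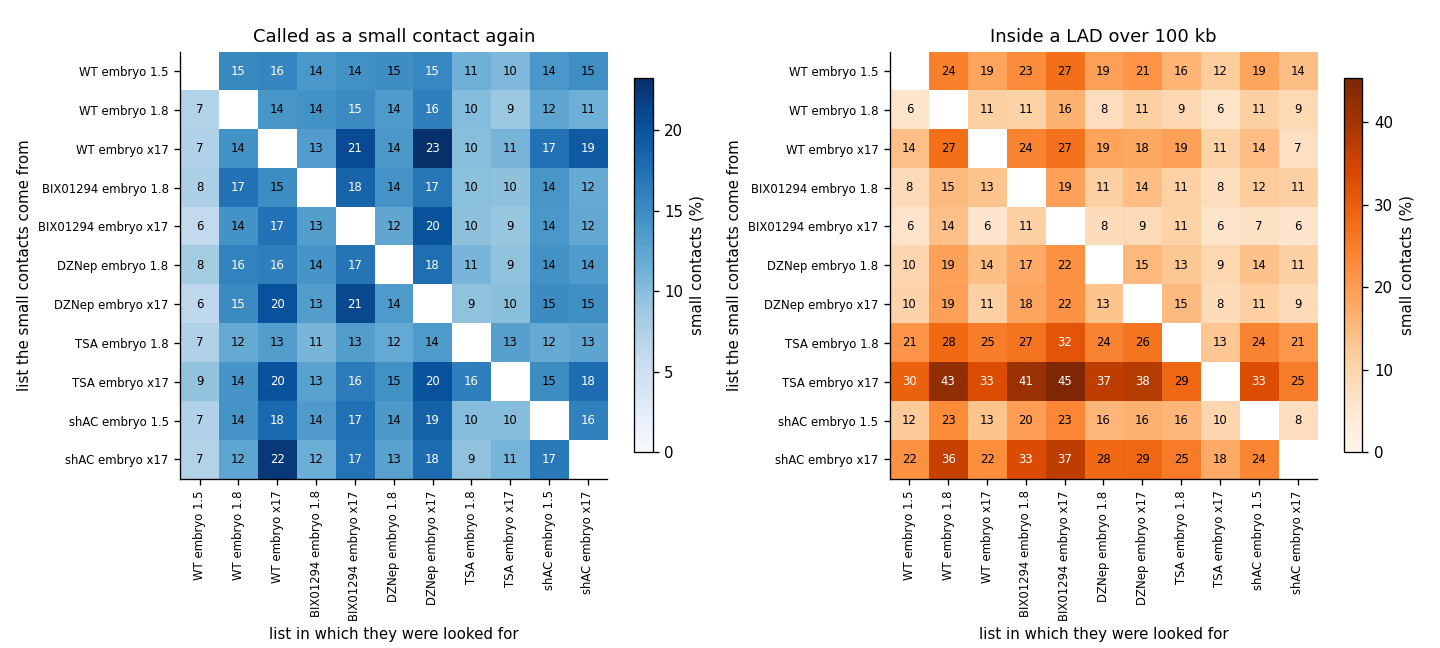
Share of the small contacts of each list (rows) that were called small again (left, percent) or lay inside a LAD over 100 kb (right, percent) in each other list (columns), with at least 50% of the length covered. The columns of WT embryo 1.5 and of both TSA lists are pale on the left, and the rows of TSA embryo x17 and shAC embryo x17 are dark on the right.

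Over all lists, 13560 contacts (47.5%) were small in no other list, against 86.1% after displacement along the chromosome. At the other end, 109 contacts were small in all 10 other lists, against 6.59 after displacement. Both displaced values come from moves along the whole chromosome, where 58.9% of displaced contacts met a LAD. The displacement outside LADs, which gave lower folds, was not counted by number of lists. Of the contacts of a list, 32.5% ± 8.08 (SD, n = 11) were covered to 50% by neither the small contacts nor the LADs of any other list, from 18.5% in TSA embryo x17 to 44.1% in WT embryo 1.8. Identical start and end positions in another list were rare, at 0.115% to 0.882% of the contacts.

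Length went with recurrence. Of contacts under 5 kb, 4.96% ± 1.26 were small again in a given other list and 55.5% ± 9.30 were covered in no other list (SD over 11 lists). For contacts of 5 to 20 kb the values were 9.56% ± 1.90 and 35.7% ± 10.5, and for 20 to 50 kb they were 18.4% ± 1.97 and 20.5% ± 7.66. Contacts of 50 to 100 kb were small again in 26.7% ± 3.56 of cases, lay in a LAD in 37.3% ± 10.6, and were covered in no other list in 6.52% ± 4.30. By distance from a LAD, the share small again was 15.3% ± 1.37 at 25 to 50 kb, 18.5% ± 1.504 at 50 to 100 kb, 15.2% ± 1.91 at 100 to 250 kb, 11.8% ± 2.12 at 250 to 500 kb and 7.47% ± 1.78 at 500 kb or more (SD over 11 lists). It was thus highest in the second class and lowest in the farthest. At 25 to 50 kb, 32.4% ± 9.68 of the contacts lay inside a LAD of a given other list, and this share was 8.63% ± 6.25 at 500 kb or more. The limit of 100 kb marked no step: of the 447 contacts of 95 to 100 kb, 50.9% ± 12.4 lay in a LAD of another list, and of the 430 LADs of 100 to 105 kb, 53.6% ± 10.9.

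**Figure D4:**
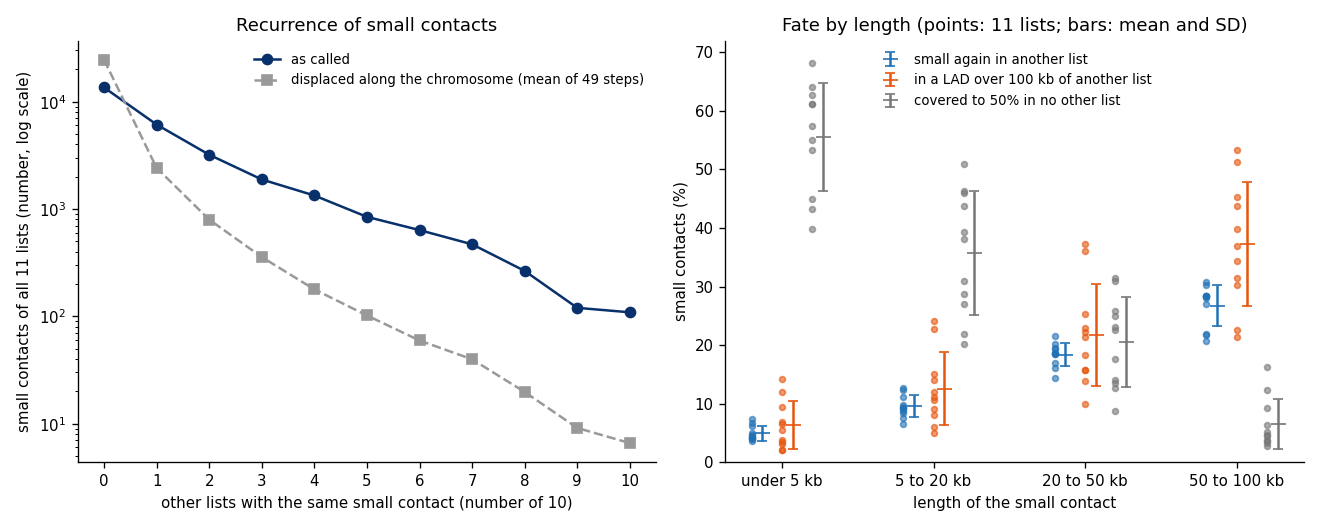
Left, number of small contacts of all 11 lists (y axis, log scale) by the number of other lists in which they were small again (x axis), as called and after displacement along the chromosome (mean of 49 steps). Displaced contacts could land in LADs. Right, share of contacts (y axis, percent) by length class that were small again or in a LAD in a given other list, or covered to 50% in no other list (points, 11 lists; bars, mean and SD). Contacts covered in no other list fall from 55.5% under 5 kb to 6.52% at 50 to 100 kb.

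By mean share, contacts recurred more often between lists of the same embryo in x17, whereas embryos 1.5 and 1.8 showed no clear excess. Pooled over embryos, lists of different treatments that share an embryo had 15.2% ± 4.34 of contacts small again (34 ordered pairs), and lists of different embryos 12.7% ± 2.97 (62 ordered pairs). The difference of 2.49 percentage points was the largest of the 96 arrangements of embryo names within treatments (one-sided exact permutation test, p = 0.0104, the smallest that these arrangements allow). By embryo, the same-embryo share was 17.1% ± 4.37 in x17 (20 ordered pairs), 12.9% ± 2.36 in 1.8 (12 ordered pairs) and 10.7% ± 4.65 in 1.5 (2 ordered pairs), so the pooled excess lay in embryo x17. For lying inside a LAD the difference was -0.533 percentage points (one-sided exact permutation test, p = 0.781). Most lists of embryo x17 also held more contacts than the other lists of their treatment, and the part of this in the recurrence was not tested. Embryo x17 carries replicate number 2 throughout, so embryo and replicate number cannot be told apart. The replicate 2 list held more contacts than the mean of replicate 1 in 4 of 5 groups, by 1.70-fold in WT, 1.29-fold with BIX01294, 1.28-fold with DZNep and 1.16-fold with shAC, whereas with TSA it held 0.888 of it. The mean difference was 606 contacts.

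Merging contacts that overlap by 1 base or more gave 15554 loci. Of these, 10397 (66.8%) were small in a single list, and 7071 of them had no interval in the other 10. A further 639 loci were small in 6 or more lists, and 19 were small in all 11, with no LAD touching any of these 19. The 10 of them with the smallest SD of length in kb are given here and in the next paragraph. This SD is not scaled to length, so it favours short loci. A locus on chromosome 7, from 112799359 to 112874678, was called at 61.6, 62.5 and 64.4 kb in the WT lists of embryos 1.5, 1.8 and x17, and at 62.5 to 73.3 kb in the 8 treated lists. Its mean was 66.4 ± 3.93 kb (SD, n = 11) and its median distance to a LAD 104 kb. On chromosome 6, from 67120589 to 67215042, the length was 87.0 ± 4.34 kb (78.0 to 93.8 kb), and on chromosome 11, from 48925261 to 49011227, it was 72.2 ± 6.29 kb (61.2 to 82.4 kb). A small SD of length across lists at these loci follows from how they were chosen. Chromosome 4, from 88826994 to 88918393, ran from 45.8 kb (TSA embryo x17) to 86.9 kb (BIX01294 embryo x17), and chromosome 14, from 105575782 to 105658630, from 43.5 kb (TSA embryo x17) to 82.6 kb (TSA embryo 1.8). Others lay on chromosome 2, from 61497685 to 61547767 (38.8 ± 7.21 kb), chromosome 7, from 127877933 to 127973091 (71.3 ± 9.20 kb), and chromosome 3, from 134965301 to 135062806 (73.2 ± 12.7 kb).

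2 of the recurrent loci began near the first position called on their chromosome. A locus on chromosome 2, from 3000020 to 3055675, also among the 10 loci of smallest SD, was called in all 11 lists at 26.4 to 54.2 kb. A second, on chromosome 11, from 3002123 to 3100059, was a small contact in 10 lists and part of a LAD in WT embryo 1.8. In 7 of these 10 lists it had the same length of 97.9 kb to the base, and its median distance to a LAD was 3588 kb, the largest of the loci small in 6 or more lists. An isolated locus on chromosome 18, from 56887956 to 56924817, also among the 10 loci of smallest SD, was small in all 11 lists at 1847 kb from a LAD. It measured 15.469 kb in 7 lists, 0.132 kb in WT embryo x17, 3.27 kb in DZNep embryo x17, 21.8 kb in TSA embryo x17 and 25.5 kb in shAC embryo x17. The other loci among the 5 farthest from a LAD were on chromosome 11, from 96204816 to 96261053 (6 lists, 2093 kb), chromosome 7, from 118397461 to 118590061 (8 lists, 1889 kb), and chromosome 8, from 123488249 to 123603244 (6 lists, 1598 kb). The chromosome 7 locus spans 192.6 kb and held from 0.475 kb (DZNep embryo 1.8) to 112.8 kb (DZNep embryo x17) of contacts, so it merges several. Contacts of different lists in a merged locus need not overlap each other.

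The treatments were compared with WT in number, given as a description because the length rule sets it, and in where the contacts lay. The latter was tested by exact permutation over the 10 arrangements of 3 WT and 2 treated lists, which cannot give p below 0.1, and the p-values measure the spread between these lists alone. The mean numbers of contacts were 2472 ± 973 in WT (SD, n = 3), 2718 ± 487 with BIX01294, 2795 ± 485 with DZNep, 1844 ± 155 with TSA and 3209 ± 338 with shAC (SD, n = 2 each). Within embryos, treated minus WT was -597 (embryo 1.8) and -1669 (embryo x17) for TSA, and 1508 (embryo 1.5) and 45 (embryo x17) for shAC. The means with BIX01294 and DZNep lay above WT, but within embryos 1.8 and x17 treated minus WT was -177 and -341 for BIX01294 and -98 and -265 for DZNep. The WT list of embryo 1.5, the lowest of all, has no drug-treated partner. A paired mean over embryos (replicate block) was thus -259 for BIX01294 and -181.5 for DZNep, against unpaired differences of 246 and 323.

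WT contacts were looked for in other lists. In another WT list 12.3% ± 3.88 of them were small again (SD, 6 ordered pairs), compared with 15.3% ± 2.71 in BIX01294, 16.2% ± 3.55 in DZNep, 10.3% ± 0.880 in TSA and 14.9% ± 2.99 in shAC lists (two-sided exact permutation tests, p from 0.4 to 0.7, adjusted p = 0.7 for all 4). Inside a LAD lay 16.9% ± 8.10 of the WT contacts in another WT list, 21.2% ± 6.60 in BIX01294, 16.1% ± 5.26 in DZNep, 12.2% ± 4.64 in TSA and 12.4% ± 4.19 in shAC lists (two-sided exact permutation tests, p from 0.4 to 1, adjusted p from 0.667 to 1). As paired means over embryos (replicate block), each treated list being set against the WT list of the other shared embryo, treated minus WT for small again was 3.41 points for BIX01294, 4.23 for DZNep, -3.71 for TSA and 5.21 for shAC, and for inside a LAD -0.632, -6.31, -9.32 and -3.46 points in the same order. The sign for BIX01294 inside a LAD thus differed between both ways. Signs also turned with the WT list used. Against WT embryo 1.5 (embryos 1.8 and x17), small again was 2.75 and 3.47 points for TSA, and inside a LAD was 4.63 and 12.7 for BIX01294, 1.96 and 4.00 for DZNep, and 3.41 and -3.47 for TSA. The paired values were not tested. The WT lists all come from different embryos, whereas each treated list shares its embryo with a WT list. Treatment and shared embryo thus cannot be told apart in these differences. The shares were also set against displacement outside LADs. The level for small again ran from 2.02% (WT embryo 1.8 in WT embryo 1.5) to 6.13% (WT embryo x17 in BIX01294 embryo x17). As folds over this level, WT contacts were small again 3.003 to 3.63 times as often in another WT list. The folds were 2.50 to 3.73 in BIX01294, 2.69 to 3.81 in DZNep, 2.78 to 3.15 in TSA and 3.13 to 4.29 in shAC lists. Each of these ranges overlapped that of the WT pairs, and the folds were not tested. In treated lists of the same embryo, WT contacts of embryo x17 were small again in 20.7% (BIX01294), 23.2% (DZNep), 10.9% (TSA) and 19.4% (shAC) of cases.

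Small contacts of TSA lists had the highest mean share lying in WT LADs, and also the highest level after displacement. In the 3 WT lists, 21.2% to 42.6% of TSA contacts lay inside a LAD over 100 kb, with a mean of 29.97% ± 7.38 (SD, 6 ordered pairs), against 16.9% ± 8.10 for contacts of 1 WT list in another. The ranges overlapped, as WT pairs ran from 5.92% to 27.3%. The difference of 13.03 percentage points was the largest of the 10 arrangements, the others giving -9.33 to 9.36 (two-sided exact permutation test, p = 0.1, the smallest possible, adjusted p = 0.4). Displaced within the sequence outside the LADs of their own list, TSA contacts met a WT LAD in 18.4% ± 3.20 of cases and WT contacts in 11.04% ± 4.76 (SD, 6 ordered pairs each), so the displaced levels already differed by 7.37 points. As a fold over this level, TSA contacts lay in WT LADs 1.63 ± 0.281 times as often (1.33 to 1.94) and WT contacts 1.502 ± 0.180 times (1.25 to 1.74). These ranges overlapped, and the mean fold for shAC was 1.64 ± 0.108. Within an embryo the difference depended on the WT list whose contacts were set beside those of TSA. In the WT LADs of embryo 1.8 it was 0.943 points against contacts of WT embryo x17 and 3.79 against those of WT embryo 1.5. In the WT LADs of embryo x17 it was 21.8 points against contacts of WT embryo 1.8 and 14.3 against those of WT embryo 1.5. Without TSA embryo x17 it was 7.91 points and without TSA embryo 1.8 it was 18.1 points. By length class, TSA against WT contacts lay in WT LADs in 13.04% against 5.96% of cases under 5 kb, 19.7% against 11.48% at 5 to 20 kb, 31.3% against 21.0% at 20 to 50 kb, and 47.4% against 38.3% at 50 to 100 kb. TSA contacts were also longer, and the part of length in the difference was not tested. For shAC the share was 21.4% ± 8.54, for DZNep 14.1% ± 4.38 and for BIX01294 10.5% ± 4.12, differences of 4.49, -2.88 and -6.42 points (two-sided exact permutation tests, p = 0.5, 0.4 and 0.3, adjusted p = 0.5 for each). TSA lists were also among those with the fewest bases in LADs (1356 and 1302 Mb, against 1339 to 1536 Mb in the other 9 lists), which moves with this result, and its part in the result was not tested.

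Read from the side of the LADs, 5.85% ± 3.71 of the LADs of 1 WT list were left with small contacts alone in another WT list. The share was 3.59% ± 1.72 in BIX01294, 5.04% ± 1.88 in DZNep, 7.93% ± 1.81 in TSA and 10.2% ± 4.37 in shAC lists (SD, 6 ordered pairs each). LADs of a WT list with no interval at all were 4.55% ± 5.25 in another WT list, 1.62% ± 1.48 in BIX01294, 2.05% ± 1.57 in DZNep, 8.42% ± 2.37 in TSA and 3.86% ± 1.99 in shAC lists. WT pairs alone ran from 0.433% to 12.5%, a range that holds the TSA mean. These shares were not tested.

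The loci small in every WT list numbered 178, and they were most often without an interval in the TSA lists. In the BIX01294 lists of embryos 1.8 and x17 they were small contacts in 111 and 115 cases and had no interval in 37 and 21. With DZNep, 121 and 119 were small and 35 and 28 had no interval, and with shAC (embryos 1.5 and x17) 118 and 120 were small and 39 and 47 had none. With TSA, 75 and 70 were small, and 80 and 95 had no interval. Loci without an interval in either TSA list numbered 62 of 178 (34.8%), against 13 with BIX01294, 12 with DZNep and 18 with shAC (7.30%, 6.74% and 10.1%). As background, of the 1702 merged WT intervals of any length called in all WT lists, 5.82% had no interval in either TSA list, 0.94% in either BIX01294, 0.705% in either DZNep and 1.41% in either shAC list. These loci were singled out after the counts had been seen, and the shares are given without a test. Leaving out 1 list of a comparison gave 35.9% to 53.4% for TSA (highest without TSA embryo 1.8), 11.08% to 20.8% for BIX01294, 13.8% to 19.7% for DZNep and 17.8% to 26.4% for shAC. Leaving out a treated list asks for absence in the remaining list alone, which cannot lower the share. Leaving out a WT list changes the set of loci, so these ranges are not like for like with the shares above. The 178 loci are by definition small in WT embryo 1.5. Of the 624 loci small in the other 2 WT lists, 64.9% had no interval in WT embryo 1.5, against 57.5% and 61.5% in the TSA lists and 23.9% to 39.6% in the other treated lists. Of the 370 loci small in the WT lists of embryos 1.5 and x17, 24.3% had none in WT embryo 1.8, against 45.1% and 57.3% in the TSA lists. Of the 307 small in those of embryos 1.5 and 1.8, 25.4% had none in WT embryo x17, against 50.8% and 57.7%. The TSA shares were thus above 2 of the 3 WT lists and below WT embryo 1.5.

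In the opposite direction, 71 of 340 loci small in both TSA lists (20.9%) lay in a LAD in all 3 WT lists, compared with 57 of 809 for shAC (7.05%), 10 of 608 for BIX01294 (1.64%) and 11 of 626 for DZNep (1.76%). The same held for 69.6% of merged intervals of any length called in both TSA lists, 57.9% for shAC, 53.8% for BIX01294 and 57.1% for DZNep. These shares too are given without a test. Of the loci small in both treated lists, those with no interval in any WT list were 31 of 340 with TSA (9.12%), 95 of 608 with BIX01294 (15.6%), 80 of 626 with DZNep (12.8%) and 77 of 809 with shAC (9.52%). Of merged intervals of any length called in both treated lists, 2.45%, 3.93%, 3.03% and 2.89% had none in any WT list, in the same order. The intervals of any length were merged over the treated lists alone and the small loci over all 11 lists, so the former do not contain the latter one for one. Of the 178 loci small in all WT lists, 6 lay in a LAD in both TSA lists (3.37%), 10 in both BIX01294 (5.62%), 9 in both DZNep (5.06%) and 3 in both shAC lists (1.69%). For merged WT intervals of any length the shares were 65.1%, 82.1%, 78% and 65.5%.

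**Figure D5:**
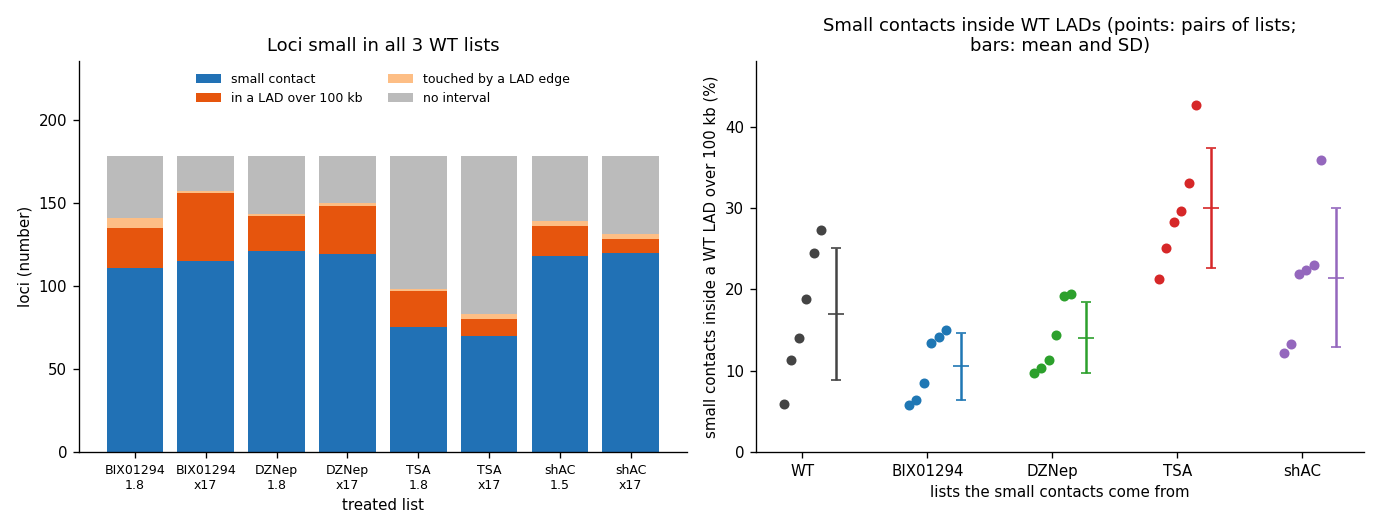
Left, number of the 178 loci small in all 3 WT lists (y axis) that were a small contact, in a LAD, at a LAD edge or without an interval in each treated list (x axis). Right, share of small contacts of each group lying inside a LAD over 100 kb of a WT list (y axis, percent; points, ordered pairs of lists; bars, mean and SD); TSA reaches 42.6%, and 80 and 95 of the 178 loci have no interval in the TSA lists.

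The longest locus of each kind is given as an example, so lengths close to the limit follow from this choice. On chromosome 1, from 140617965 to 140720375, contacts of 98.01, 95.4 and 98.3 kb in the WT lists of embryos 1.5, 1.8 and x17 had no interval in either TSA list. The same locus was a small contact of 85.5 to 94.9 kb in 5 of the other 6 treated lists, and in DZNep embryo x17 it lay in a LAD. On chromosome 4, from 119101528 to 119213251, all 9 lists other than TSA held a LAD, and the TSA lists held contacts of 99.8 kb (embryo 1.8) and 92.8 kb (embryo x17), close to the limit. A locus on chromosome 16, from 33980443 to 34062937, had no interval in any WT list and measured 82.5 and 61.2 kb with TSA, and was also called in BIX01294 embryo x17 and shAC embryo 1.5. On chromosome 5, from 4105526 to 4208297, contacts of 62.5, 74.6 and 91.5 kb in WT were part of a LAD in both TSA lists.

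For shAC, the longest locus in a LAD in all WT lists was on chromosome 3, from 104900027 to 104999557, with contacts of 99.5 kb (embryo 1.5) and 94.9 kb (embryo x17). It was also a contact of 97.03 kb in TSA embryo 1.8, and lay in a LAD in the other 8 lists. A locus on chromosome 10, from 25265874 to 25340143, had no interval in any WT list, measured 48.4 and 74.3 kb with shAC, and lay in a LAD in BIX01294 embryo x17. For BIX01294, contacts of 81.2, 99.2 and 94.9 kb on chromosome 6, from 142344903 to 142450738, were in a LAD in both treated lists, and also in DZNep embryo x17 and shAC embryo 1.5. For DZNep, contacts of 88.3, 92.8 and 80.6 kb on chromosome 13, from 40838750 to 40938727, were in a LAD in both treated lists and in TSA embryo x17. These WT contacts of 80.6 to 99.2 kb lay close to the limit of 100 kb, as follows from choosing the longest loci.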

How the data were processed

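DamID-seq of 22 samples was analysed as 11 lists, 1 per pair of Dam-lamin B1 and Dam-only libraries. The authors segmented the ratio of both with LADetector, without pooling replicates, and the intervals were deposited with positions alone (mm9, per the submitters' processing notes). The aligner is not given in the sources used here. Deposited neighbours lie as close as 10001 bases and intervals are as short as 1 base, below the joining distance and length filter in the methods of the paper, which lists these data among the datasets it discusses. The labels gave each list's treatment, embryo and replicate number. Same-numbered lists of 1 embryo were taken as pairs, since they come from the same animal.

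Intervals under 25 kb apart were joined on chromosomes 1 to 19, and positions count from 1. The small contacts, regions and comparisons were chosen with earlier results of these data known. Named regions are the 10 loci small in the most lists with no LAD (smallest SD of length first), the 5 loci farthest from a LAD among those small in 6 or more lists, and, for each treatment, up to 2 of the longest loci per switch between WT and treated lists, some of which are given. Lists were compared by exact permutation, with Benjamini-Hochberg adjustment over 4 treatments. Displacement took 49 steps, from 2% to 98% of the chromosome span. That within sequence outside LADs was chosen after seeing the data. Alternatives were no joining or joining under 50 kb, limits of 50 and 150 kb, contacts of at least 20 kb, chromosome X added, overlaps of 1 base or 90%, the number per Mb outside LADs or as a share of joined intervals, the replicate block and each list left out. Computation used Python 3.11.15 and numpy 2.4.6, figures matplotlib 3.10.9, and overlaps and joining were tested on simulated data. Genes and sequences were not analysed here, as no mm9 annotation was used.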

Additional observations from a re-analysis of the deposited data

Results flagged for a closer look

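Some treatment differences had opposite signs in the 2 embryos of a treatment, and these differences between embryos were not tested. Each value sets the treated list against the WT list of the other embryo that the treatment shares with WT, so treatment, embryo and the choice of WT list cannot be told apart. The share of WT contacts called small again, treated minus WT, was -0.353 percentage points in embryo 1.8 and 8.82 in embryo x17 for DZNep, and -1.57 in embryo 1.5 and 11.99 in embryo x17 for shAC. With the third WT list in that place, a choice made after seeing the data, these were 6.31 and 15.8 for DZNep, of 1 sign, and -1.37 and 5.02 for shAC. The share of small contacts lying in WT LADs, treated minus WT, was -8.06 points in embryo 1.8 and 0.0580 in embryo x17 for DZNep, and -1.83 in embryo 1.5 and 3.59 in embryo x17 for shAC. With the third WT list these were -5.21 and -7.43 for DZNep and 6.27 and 11.08 for shAC, so both treatments then had 1 sign. Chromosome X, outside the main comparisons, held 39 (TSA embryo 1.8) to 132 (shAC embryo x17) small contacts per list.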

How the results depend on the processing

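Of 261 values of 18 results under other settings, 250 kept the direction and the side of the 0.05 threshold, which no comparison of a treatment with WT could pass. The number for BIX01294 minus WT became -259 under the replicate block and ranged from -259 (without WT embryo 1.5) to 711.5 with a list left out, being -98.7 without BIX01294 embryo x17. For DZNep it became -181.5 under the replicate block and ranged from -181.5 (without WT embryo 1.5) to 789, being -19.7 without DZNep embryo x17. With contacts of at least 20 kb, the number for TSA minus WT was 15.3, although TSA held 1038 against 1114 in embryo 1.8 and 1086 against 1423 in embryo x17. WT contacts inside a LAD, treated minus WT, were -0.632 points for BIX01294 under the replicate block. For DZNep they were 0.0896 points with contacts of at least 20 kb and ranged from -5.28 to 2.95 (without WT embryo 1.8) with a list left out. Contacts in WT LADs, shAC minus WT, ranged from -0.798 (without shAC embryo x17) to 9.78 points. The same-embryo difference in recurrence was 1.52 to 3.34 points under all 19 alternatives, and contacts in WT LADs for TSA were 7.91 to 18.1 points above WT under 14. The paired fit changed no other direction.

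The direction of the 2 locus shares added after seeing the data was judged, as a description, against the mean share of the other arrangements. Absence in both treated lists, minus that mean, was 23.2 points for TSA, -4.75 for BIX01294, -4.45 for DZNep and -0.601 for shAC. For loci small in both treated lists and in all WT LADs it was 16.4, -2.64, -2.34 and 3.18 points. Of 88 alternatives, 8 reversed, none of them among the 22 for TSA. The loci were chosen with the counts known, so this lends no independent support. Over settings other than a list left out, absence in both treated lists was 25.1% to 46.7% for TSA, 1.11% to 17.8% for BIX01294 and 0% to 24.4% for DZNep (0% with contacts of at least 20 kb). Loci small in both treated lists and in all WT LADs were, with a list left out, 14.7% to 27.9% for TSA, 1.34% to 3.95% for BIX01294 and 3.40% to 5.43% for DZNep. Loci small in all WT lists and absent in both DZNep lists were 19.4% without WT embryo 1.5 (range with a list left out 13.8% to 19.7%). Absent in both shAC lists were 16.4% with joining under 50 kb, 22.2% with a limit of 50 kb, 7.80% with 150 kb, 8.89% with contacts of at least 20 kb, and 17.8% to 26.4% with a list left out (23.1% without WT embryo 1.5, 22.8% without WT embryo x17). Loci small in both shAC lists and in all WT LADs were 4.62% to 14.6% with a list left out, lowest without shAC embryo x17. Leaving out a list changes the rule that the loci must meet, so those shares are not like for like with the main ones. Other causes of these changes were not tested. Depth is unknown, so weakly and strongly supported contacts look alike.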
